A study of Mus musculus with 12 samples.

Results

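The 37 genes encoded by mitochondrial DNA were followed in interscapular brown adipose tissue of mice labelled ctrl or cold. They comprise every gene that the GENCODE M21 annotation (genome build GRCm38) places on chromosome M, namely 13 protein genes, 2 ribosomal RNA genes and 22 transfer RNA genes, out of 54356 genes with a quantified transcript. The rule for membership is position on the chromosome.

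The animals were male wild type C57BL/6N mice, 20 weeks old. There were 6 ctrl animals (mouse numbers 2, 5, 6, 9, 10 and 14) and 6 cold animals (mouse numbers 4, 7, 11, 12, 15 and 16), each with 1 library of polyadenylated RNA read as pairs of 50 nt. The treatment text, attached to animals of both groups, describes 24 h of single housing at 4 °C, and the husbandry text gives 22 to 24 °C. The temperature at which the ctrl animals were kept is therefore not given separately. The series text counts 3 animals in the cold, and the extraction text names epididymal white fat although the samples are labelled as brown fat. Total reads per library, in units of 1e6, were 16.0 to 31.4. The 12 brown adipocyte markers summed to 10818 to 17482 CPM (scaled reads per 1e6 reads of a library) in ctrl and 16361 to 20380 CPM in cold. The 14 skeletal muscle markers summed to 178 to 1666 CPM in ctrl and 218 to 5558 CPM in cold, with the highest sum in cold 15. Their median log2 fold change was 1.15, and none of the 14 passed the test. Of the 12 brown adipocyte markers 6 were called higher, beside 16.2% called higher and 15.4% called lower over all genes tested. Of 5 fibroblast markers 3 were called lower (median log2 fold change of the list -0.51, summed level 206 to 354 CPM in ctrl and 161 to 233 CPM in cold). Of 6 endothelial markers 2 were lower and 1 was higher, with sums of 679 to 921 CPM in ctrl and 700 to 901 CPM in cold. Among 5 adipocyte markers 1 was higher and 1 lower, and among 6 macrophage markers 1 was higher. None of 4 Schwann cell markers, 4 erythroid markers and 1 tested lymphocyte marker was called. The part of these cell types in the results was not tested, except for muscle, by a fit with its markers as a covariate.

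Mitochondrial DNA is transcribed from both strands into long precursors. In the classical account, transfer RNAs that lie between the other genes are cut out, which frees the messenger and ribosomal RNAs between them. Most of the messenger RNAs then receive short poly(A) tails. All of its 13 proteins are subunits of the respiratory chain or of ATP synthase, which work together with many subunits made from nuclear genes. In brown fat the respiratory chain builds the proton gradient that uncoupling protein 1 dissipates as heat.

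The 3′ ends of the messages show why tailing matters to those that lack a whole stop codon. They are given 5′ to 3′ on the transcribed strand from the GENCODE M21 transcripts of GRCm38. Capitals mark the last codon, or the bases left of it. The mt-Nd1 end (chrM:3678-3707, plus strand) and the mt-Nd6 end (chrM:13552-13581, minus strand) carry a whole stop codon, whereas mt-Co3 (chrM:9361-9390), mt-Nd4 (chrM:11515-11544) and mt-Cytb (chrM:15259-15288), all on the plus strand, end in a single T of the stop codon, which the tail completes.
mt-Nd1 3′ end: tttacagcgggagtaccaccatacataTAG
mt-Co3 3′ end: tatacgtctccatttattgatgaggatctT
mt-Nd4 3′ end: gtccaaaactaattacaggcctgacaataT
mt-Cytb 3′ end: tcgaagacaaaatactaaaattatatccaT
mt-Nd6 3′ end: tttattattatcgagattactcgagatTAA

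All 13 messenger RNAs passed the filter on low counts, all 13 had a mean below ctrl in cold, and 8 of them fell by edgeR's quasi-likelihood test at an adjusted p under 0.05. None rose and 5 did not pass. Over all 13876 genes tested, 15.4% were called lower and 16.2% higher. The median log2 fold change of the 13 messages was -0.55, beside -0.01 over all genes. In 7 of the 13 the CPM values of the groups did not overlap, beside 16.3% of all genes. Fewer mitochondria or cells and less RNA per mitochondrion cannot be told apart in bulk tissue. The libraries hold poly(A)-selected RNA, and the share of molecules with a tail was not measured for any message, mt-Nd6 among them. Nothing in the labels says more of the 6 libraries of a group than that they came from separately numbered mice.

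**Figure D1:**
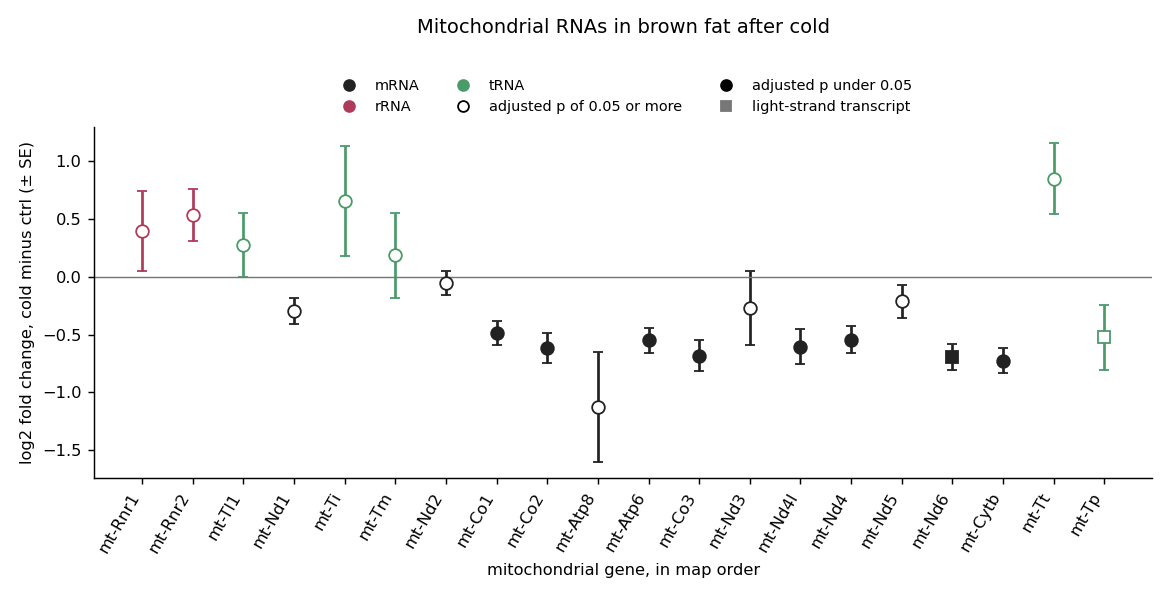
Log2 fold change (cold minus ctrl, ± SE from edgeR, 6 libraries a group) of the 20 mitochondrial genes that passed the filter, in map order. Circles are heavy-strand and squares light-strand transcripts, and filled symbols have an adjusted p under 0.05. The 13 messages lie at or below -0.05 and both rRNAs lie above 0.

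Of the 7 complex I subunit messages, 3 fell. mt-Nd6, the one message read from the light strand (ENSMUSG00000064368, chrM:13552-14070), ran from 874 over a median of 1022 to 1126 CPM in ctrl and from 474 over 646 to 745 CPM in cold, with no overlap between the groups. Within each group the lowest values were those of ctrl 14 and of cold 12, 15 and 16, where the deposited effective length of mt-Nd6 was 246 to 259 nt, beside 213 to 233 nt in the other libraries. Without these 4 libraries mt-Nd6 stood at -0.54 and was still called (edgeR adjusted p = 6.28e-03). Over all 12 its log2 fold change was -0.69 ± 0.11 (SE), with an adjusted p of 1.93e-04. It overlaps mt-Nd5 by 14 bases on the opposite strand, and none of the sources used here gives the strand setting of the quantification, so reads of the opposite transcript cannot be told apart. mt-Nd4 (ENSMUSG00000064363, chrM:10167-11544) had 13606, 15177 and 20062 CPM as lowest, median and highest in ctrl and 9226, 11041 and 13250 CPM in cold. It fell by 0.54 on the log2 scale (SE 0.11, edgeR adjusted p = 1.70e-03). mt-Nd4l (ENSMUSG00000065947, chrM:9877-10173), which shares 7 bases with mt-Nd4, had 1726, 2135 and 2677 CPM in ctrl and 812, 1517 and 1617 CPM in cold. It fell by 0.60 on the log2 scale (SE 0.15, edgeR adjusted p = 6.53e-03). Neither of these overlapped between the groups.

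The other complex I messages did not pass. mt-Nd1 (ENSMUSG00000064341, chrM:2751-3707) had 12634, 16205 and 19721 CPM in ctrl and 11227, 14064 and 15237 CPM in cold, which put it at -0.30 ± 0.11 (log2 fold change and SE) with an edgeR adjusted p of 0.0577. It passed with DESeq2 (adjusted p = 0.0374) and with a count minimum of 50 (adjusted p = 0.0382). mt-Nd2 (ENSMUSG00000064345, chrM:3914-4951) stood at 17339 ± 2367 CPM (SD, n = 6) in ctrl and 16701 ± 1868 CPM in cold, a log2 fold change of -0.05 ± 0.10 (SE), and the groups overlapped over most of their range. With scaling by library totals its value was 0.04. mt-Nd5 (ENSMUSG00000064367, chrM:11742-13565) had a log2 fold change of -0.21 ± 0.14 (SE), with an adjusted p of 0.291. Its lowest value in cold, 7526 CPM, was that of cold 4. Without cold 4 the log2 fold change was -0.11, and without ctrl 14 it was -0.12.

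mt-Nd3 (ENSMUSG00000064360, chrM:9459-9806) had 452 ± 159 CPM in ctrl and 376 ± 181 CPM in cold, and its log2 fold change was -0.27 ± 0.32 (SE). Leaving out 1 animal gave values from -0.53 (without cold 4) to -0.11 (without ctrl 6), and without ctrl 5, or without cold 15, it was -0.17 or -0.14. Its count depends on how reads were divided with Gm28438, an unprocessed pseudogene on chromosome 1, which differs from it at 1 of 345 compared bases (T3C, reference base of mt-Nd3 first, counted from the first base of the gene). The first 60 bases of both are shown because they hold the only base that differs over the compared stretch of the reference, in capitals. They are mt-Nd3 chrM:9459-9518, plus strand, and Gm28438 chr1:24613060-24613119, minus strand, from GENCODE M21.
mt-Nd3: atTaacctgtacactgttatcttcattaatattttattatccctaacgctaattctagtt
Gm28438: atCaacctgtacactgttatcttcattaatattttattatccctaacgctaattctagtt
The pseudogene held 76.0% of the reads of the pair, and 64.0 to 82.7% in single libraries. With both added, the level was 1952 ± 730 CPM in ctrl and 1600 ± 291 CPM in cold. The alleles in the reads were not examined here, so how much of the summed level belongs to mt-Nd3 is not known. In the other 6 near-identical copies on chromosome 1 the pseudogene held less of the pair, from 0.0503% for mt-Co3 to 4.15% for mt-Nd4l over all libraries together. In single libraries the share reached 5.75% for mt-Co1 (cold 4), 6.01% for mt-Nd4 (ctrl 9) and 6.19% for mt-Nd4l (ctrl 5). Adding the copies left 8 messages called lower. Ratios of reads that gained a call with the copies added are given with the settings at the end.

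The single mitochondrial message of complex III, mt-Cytb (ENSMUSG00000064370, chrM:14145-15288), had the smallest adjusted p of the 37 genes, 8.44e-05. It had 20920, 23201 and 30940 CPM as lowest, median and highest in ctrl and 12820, 14779 and 17570 CPM in cold, a log2 fold change of -0.73 ± 0.11 (SE). The highest cold library lay below the lowest ctrl library.

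All 3 complex IV messages fell. mt-Co1 (ENSMUSG00000064351, chrM:5328-6872), the catalytic subunit of cytochrome c oxidase, had 31741, 33809 and 44336 CPM in ctrl and 23171, 24627 and 31360 CPM in cold. It fell by 0.49 on the log2 scale (SE 0.10, edgeR adjusted p = 1.70e-03). mt-Co2 (ENSMUSG00000064354, chrM:7013-7696) had 19618, 24204 and 33001 CPM in ctrl and 12863, 16176 and 19655 CPM in cold, where the highest cold value just passed the lowest ctrl value. It fell by 0.62 on the log2 scale (SE 0.13, edgeR adjusted p = 1.85e-03). mt-Co3 (ENSMUSG00000064358, chrM:8607-9390) had 10823, 13067 and 19473 CPM in ctrl and 7033, 8825 and 9858 CPM in cold, with no overlap. It fell by 0.68 on the log2 scale (SE 0.13, edgeR adjusted p = 1.00e-03).

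Of the 2 ATP synthase messages, mt-Atp6 fell. mt-Atp6 (ENSMUSG00000064357, chrM:7927-8607), part of the proton channel, had 18576, 21397 and 28380 CPM in ctrl and 12840, 15844 and 17100 CPM in cold, with no overlap. Its log2 fold change was -0.55 ± 0.11 (SE, edgeR adjusted p = 9.03e-04). mt-Atp8 (ENSMUSG00000064356, chrM:7766-7969) shares its last 43 bases with mt-Atp6 and had 263, 673 and 1396 CPM in ctrl and 148, 321 and 576 CPM in cold. Its log2 fold change of -1.13 ± 0.47 (SE) did not pass (adjusted p = 0.0987, and 0.0371 with DESeq2). The 4 lowest values of mt-Atp8 came from ctrl 14 and cold 12, 15 and 16, the same 4 libraries in which the deposited effective lengths of the short genes were lowest. For mt-Atp8 these were 17 to 18 nt there and 24 to 29 nt in the other 8 libraries, for mt-Nd3 91 to 96 and 119 to 136 nt, and for mt-Nd4l 54 to 56 and 74 to 88 nt. Their part in the result was not tested further than by leaving these libraries out. Without those 4 libraries the log2 fold change of mt-Atp8 was -0.73 and that of mt-Nd3 was 0.09, mt-Nd4l was at -0.69 with an adjusted p of 0.0570, and 7 messages were called lower.

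**Figure D2:**
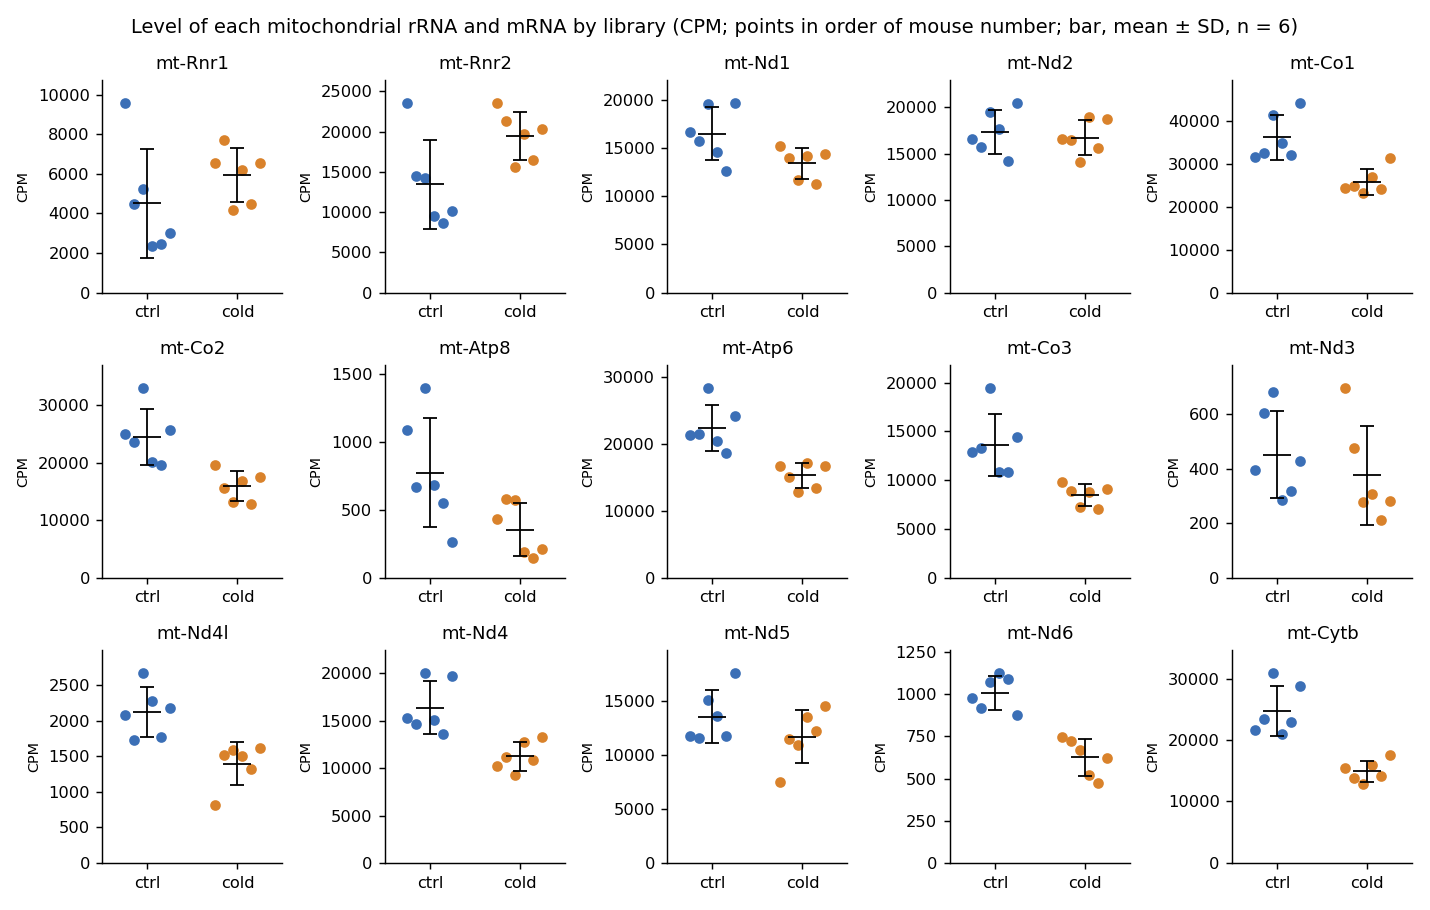
CPM of the 2 rRNAs and 13 messages in each library, with the mean and SD of 6 libraries a group and the axes starting at 0. For mt-Co1, mt-Atp6, mt-Co3, mt-Nd4l, mt-Nd4, mt-Nd6 and mt-Cytb every cold point lies below every ctrl point.

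Both rRNAs of the mitochondrial ribosome had a higher mean in cold, and neither passed the test. mt-Rnr2 (ENSMUSG00000064339, chrM:1094-2675), the large subunit rRNA, had 8650, 12148 and 23601 CPM in ctrl and 15548, 19989 and 23496 CPM in cold, which put it at 0.54 ± 0.22 (log2 difference and SE, edgeR adjusted p = 0.0893). mt-Rnr1 (ENSMUSG00000064337, chrM:70-1024), the small subunit rRNA, had 2364, 3731 and 9607 CPM in ctrl and 4157, 6365 and 7722 CPM in cold, which put it at 0.40 ± 0.35 (log2 fold change and SE, edgeR adjusted p = 0.432). The highest ctrl value of both was that of ctrl 2. Without ctrl 2 both were called higher, at 0.78 for mt-Rnr2 (edgeR adjusted p = 1.36e-03) and 0.77 for mt-Rnr1 (edgeR adjusted p = 0.0296). With the skeletal muscle markers as a covariate both were again called, each at 0.74. The libraries hold poly(A)-selected RNA, and the share of rRNA molecules with a tail was not measured.

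As a share of all gene reads, the 13 messages took 18.3% ± 2.62 (SD, n = 6) in ctrl and 14.0% ± 1.14 in cold. The 2 rRNAs took 1.70% ± 0.653 in ctrl and 2.61% ± 0.367 in cold. The rRNA reads for each 100 messenger reads were 6.00, 7.63 and 18.7 as lowest, median and highest in ctrl and 16.7, 17.4 and 21.7 in cold. Of the ctrl libraries only ctrl 2 reached into the range of the cold libraries.

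**Figure D3:**
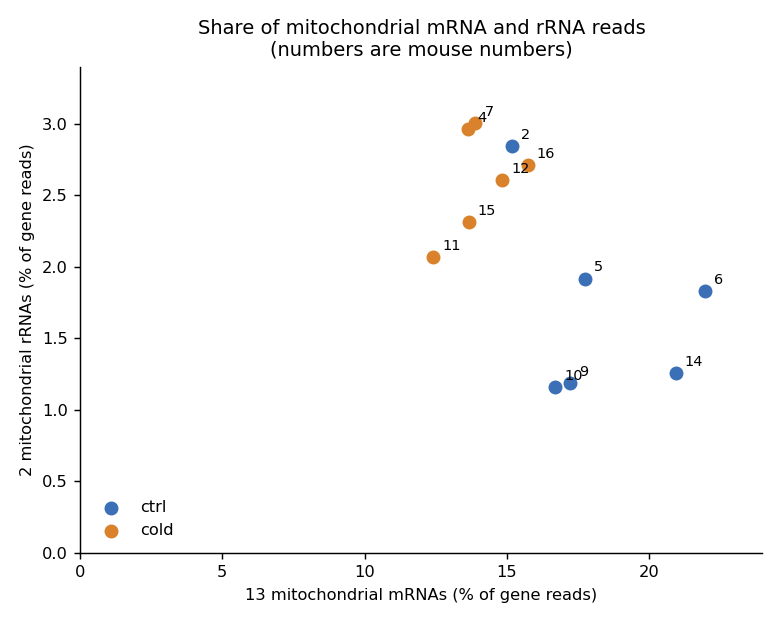
Share of gene reads from the 13 messages (horizontal, percent) and from the 2 rRNAs (vertical, percent), 1 point a library with its mouse number. The cold libraries lie at 12.4 to 15.7% messages and 2.07 to 3.00% rRNA, and ctrl 2 lies among them.

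Transfer RNAs gave few reads. Of 22 genes 5 passed the filter and none was called. Their deposited effective lengths were 8 to 23 nt over the 22 genes, in libraries of poly(A)-selected RNA. Whether these reads came from mature transfer RNAs or from precursors was not tested. mt-Tt and mt-Tp, transfer RNAs for threonine and proline, are shown because they lie side by side after mt-Cytb on opposite strands (chrM:15289-15355, plus strand, and chrM:15356-15422, minus strand).
mt-Tt: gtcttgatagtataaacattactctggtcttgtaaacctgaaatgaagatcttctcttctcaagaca
mt-Tp: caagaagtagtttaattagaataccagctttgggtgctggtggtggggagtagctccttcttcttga
mt-Tt had 5.09, 5.96 and 15.4 CPM in ctrl and 7.74, 13.6 and 20.4 CPM in cold. It stood at 0.85 ± 0.31 (log2 fold change and SE, edgeR adjusted p = 0.0548), and was called higher with DESeq2 (adjusted p = 6.30e-03), without ctrl 6 and without cold 15. mt-Tp stood at -0.52 ± 0.28 (log2 fold change and SE, edgeR adjusted p = 0.178). The others that passed, mt-Tl1, mt-Ti and mt-Tm, had log2 fold changes of 0.27, 0.66 and 0.19 with SE of 0.28, 0.48 and 0.37. Without cold 4, mt-Ti stood at 0.16, and mt-Tl1 ran from 0.11 without ctrl 10 to 0.47 without ctrl 6. The remaining 17 had 1 to 81 reads each over all libraries.

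Per kilobase of gene in ctrl, mt-Co2 (35729 ± 7116 CPM per kb, SD) and mt-Atp6 (32849 ± 5067) stood highest, and their ranges overlapped. mt-Co1 (23422 ± 3467) and mt-Cytb (21652 ± 3567) came next and overlapped each other. The highest mt-Co1 value (28697) also reached the lowest of mt-Atp6 (27277) and mt-Co2 (28682). mt-Cytb (lowest 18287) also overlapped mt-Co3 (highest 24838), mt-Nd1 (20607) and mt-Nd2 (19745). Levels were divided by annotated length. Effective lengths were 17 to 29 nt for mt-Atp8 and 54 to 88 nt for mt-Nd4l, and an order by effective length was not computed. mt-Nd6 (1944 ± 194) and mt-Nd3 (1299 ± 456) stood lowest by mean, and mt-Nd3 with its copy would stand at 5608 CPM per kb. The highest mt-Nd3 value (1959) passed the lowest of mt-Nd6 (1684), and the lowest mt-Atp8 value (1289) lay below it. In cold mt-Nd2 took the fourth place by this level instead of the seventh, and mt-Cytb the sixth instead of the fourth. Along the heavy strand the log2 fold changes of the 12 messages had a Pearson r of -0.30 and a Spearman rho of -0.22 with the start of the gene, and -0.45 and -0.33 without mt-Atp8. These genes share precursors and libraries, so this is a description only.

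Ratios of reads within a library remove its depth and scaling. Of 21 ratios compared, 17 within mitochondrial DNA and 4 against a nuclear subunit of the same complex, 7 were lower and 1 higher in cold by an exact two-sided permutation test over all assignments of the libraries to the groups, with Benjamini-Hochberg adjustment over the 21. The smallest p such a test can give here is 0.00216. Among the 13 ratios of neighbours on the heavy strand, 4 were called.

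Of the 21, mt-Cytb to mt-Rnr2 had the largest difference. It was 0.917, 2.19 and 2.84 as lowest, median and highest in ctrl and 0.646, 0.818 and 0.867 in cold, a difference of -1.33 on the log2 scale (exact permutation test, adjusted p = 0.00909). mt-Nd1 to mt-Rnr2 differed by -0.90 (exact permutation test, adjusted p = 0.0303), with ctrl 2 inside the cold range. mt-Rnr2 to mt-Rnr1 differed by 0.06 and was not called.

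Messages also differed among themselves. mt-Co1 to mt-Nd2 was 1.92, 2.10 and 2.27 in ctrl and 1.43, 1.54 and 1.67 in cold, with no overlap, a difference of -0.43 (exact permutation test, adjusted p = 0.00909). mt-Cytb to mt-Nd1 differed by -0.43 with the same adjusted p in the exact permutation test, again without overlap. Within the 13 messages the share of mt-Nd2 went from 9.18% ± 0.637 (SD, n = 6) to 12.2% ± 0.373, and that of mt-Cytb from 13.1% ± 0.823 to 11.0% ± 0.425. mt-Co1 took 19.1% ± 1.21 of them in ctrl and 19.0% ± 0.953 in cold.

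mt-Nd2 to mt-Nd1 (0.24) and mt-Cytb to mt-Nd5 (-0.50) were called by the exact permutation test with adjusted p of 0.0398 and 0.0390. Both lay near the threshold. With 1 animal left out the differences ran from 0.21 to 0.28 and from -0.63 to -0.46, and most such sets missed the threshold, with adjusted p of 0.0519 to 0.0795 in the exact permutation test. The call of mt-Nd2 to mt-Nd1 was lost on leaving out any 1 of 9 animals, that is all but ctrl 9, ctrl 10 and cold 4. The call of mt-Cytb to mt-Nd5 was lost on leaving out any 1 of 10, that is all but ctrl 9 and cold 4. mt-Nd6 to mt-Cytb, the pair with the 2 smallest adjusted p among the messages, read from opposite strands, differed by 0.02 (exact permutation test, adjusted p = 0.920). It stood at 0.35 among animals of mouse number under 8, at -0.18 among those of 9 and over, and at 0.23 without ctrl 14 and cold 12, 15 and 16. mt-Nd6 to mt-Nd5, at -0.48 over all libraries, stood at -0.17 without these 4. mt-Atp6 to mt-Atp8 was 91.7, 90.4, 90.6 and 79.9 in the same 4 libraries and 19.8 to 38.6 in the other 8. Its difference was 0.61 with them and 0.10 without them.

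**Figure D4:**
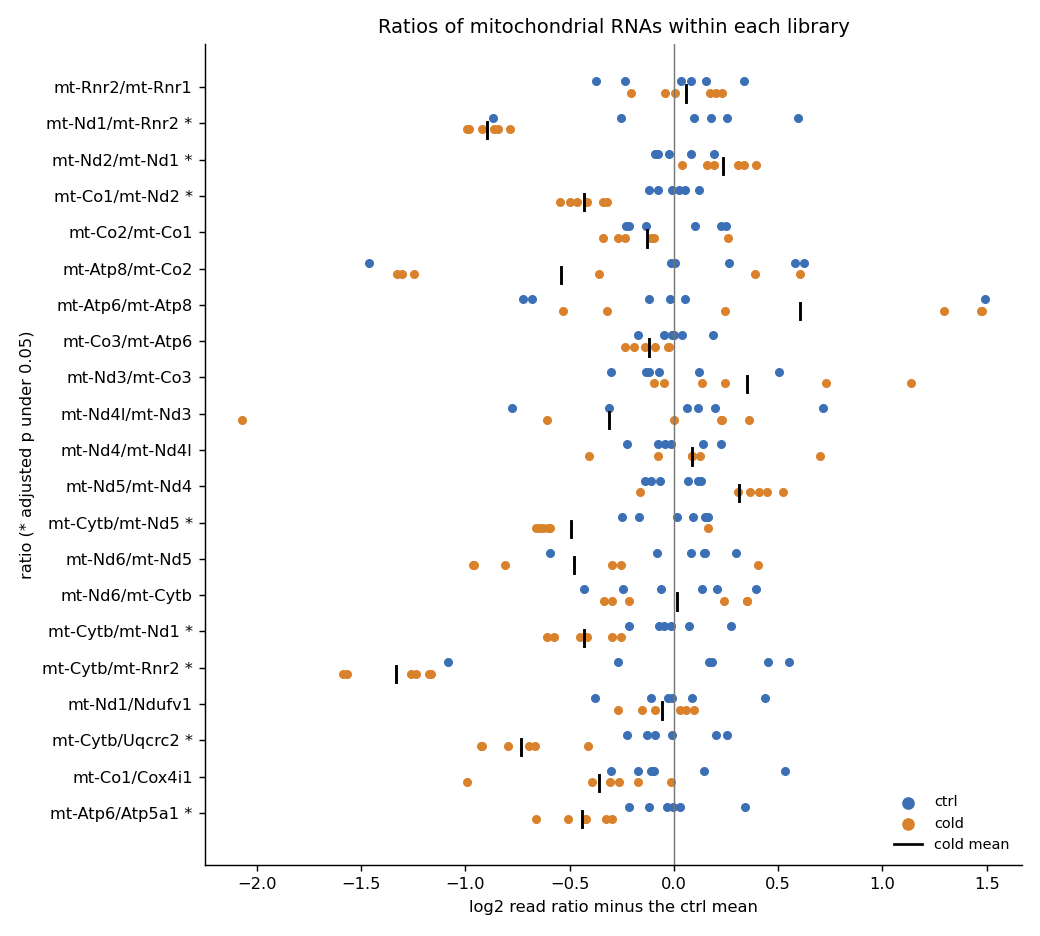
Log2 read ratio of 21 gene pairs in each library, with the ctrl mean of the pair set to 0 and a line at the cold mean. The 8 pairs with an asterisk have an adjusted p under 0.05 by an exact permutation test, and mt-Cytb to mt-Rnr2 lies farthest from 0 at -1.33.

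Against nuclear partners, mt-Cytb to Uqcrc2, a core subunit of complex III, was 24.0, 27.0 and 33.4 in ctrl and 14.8, 16.7 and 21.1 in cold, a difference of -0.74 (exact permutation test, adjusted p = 0.00909). mt-Atp6 to Atp5a1, the alpha subunit of ATP synthase, differed by -0.44 with the same adjusted p in the exact permutation test. Neither pair overlapped. mt-Co1 to Cox4i1 (-0.36, adjusted p = 0.136) and mt-Nd1 to Ndufv1 (-0.05, adjusted p = 0.720) did not pass the exact permutation test. The log2 fold changes of the partners themselves were 0.02 (Uqcrc2), -0.10 (Atp5a1), -0.11 (Cox4i1) and -0.22 (Ndufv1). Ratios to other nuclear subunits, some of which fell, were not computed.

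Of the nuclear subunit genes of the same complexes, 8 of 78 tested (10.3%) were lower and none was higher, beside 15.4% lower and 16.2% higher over all genes. The difference from the mitochondrial messages as a group was not tested. In complex I, 4 of 36 fell, led by Ndufb8 (-0.34), Ndufs3 (-0.33) and Ndufa7 (-0.46). In complex III, 2 of 9 fell, Uqcrc1 (-0.27) and Cyc1 (-0.28), and Uqcrq stood at -0.38 without passing. In complex V, 2 of 16 fell, Atp5j (-0.32) and Atp5c1 (-0.27), and Atp5g1 stood at 0.74 without passing. None of 13 in complex IV and none of 4 in complex II passed. The smallest adjusted p were those of Cox7b (-0.26), Cox8a (-0.30) and Cox5b (-0.23) in complex IV and of Sdha (-0.16), Sdhb (-0.22) and Sdhc (-0.15) in complex II. The medians of the nuclear lists lay between -0.23 and -0.10.

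**Figure D5:**
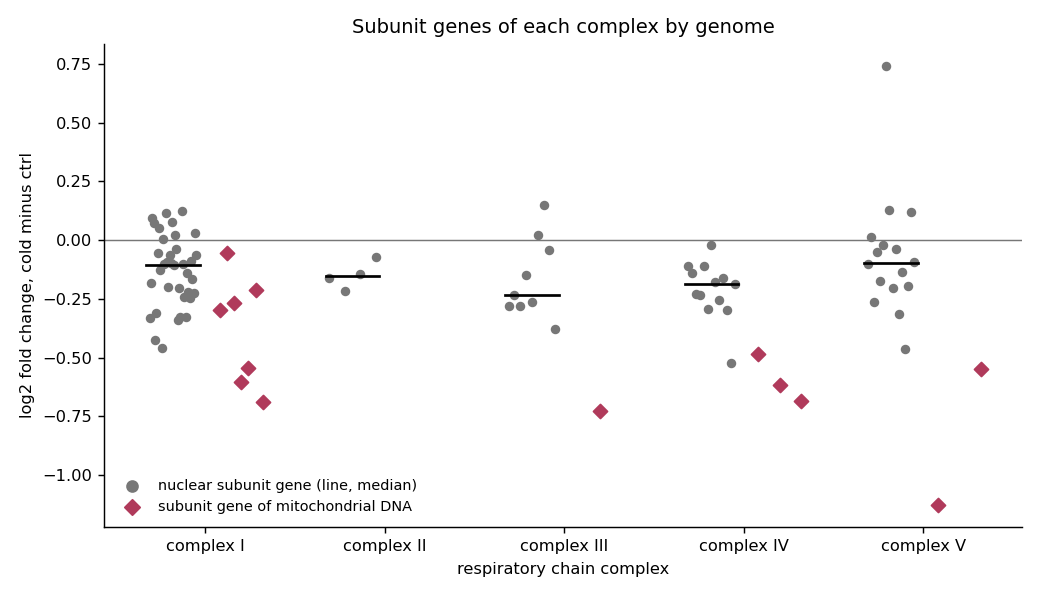
Log2 fold change (cold minus ctrl) of nuclear subunit genes (grey points, line at the median) and of subunit genes of mitochondrial DNA (red diamonds) in each complex of the respiratory chain. mt-Cytb at -0.73 lies below all 9 nuclear genes of complex III, whose median is -0.23.

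Nuclear genes for the expression of mitochondrial DNA moved in both directions. Of 16 genes for its transcription and replication, 6 rose and 2 fell, beside 16.2% higher and 15.4% lower over all genes, and the list's median was 0.01. Tfam, which packages the DNA and starts transcription, rose by 0.51 on the log2 scale to 62.7 ± 3.79 CPM (SD, n = 6, edgeR adjusted p = 6.18e-05). Polrmt, the mitochondrial RNA polymerase, rose from 65.1 ± 5.72 to 85.8 ± 3.52 CPM (0.40), and Mterf4, which acts on the mitochondrial ribosome, by 0.62. Of 25 genes tested for processing, tailing and decay of mitochondrial RNA, 9 rose and 1 fell, with a median of 0.15. Grsf1, an RNA granule protein, rose from 143 ± 13.8 to 231 ± 12.8 CPM (0.69), Fastkd5 by 0.65 and Ptcd2 by 0.59.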

How the data were processed

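RNA of 12 brown fat samples, 6 ctrl and 6 cold, was sequenced from strand-specific poly(A) libraries, as the labels describe. Salmon, cutadapt, bcl2fastq and build GRCm38 appear in the submitters' processing notes. Versions, the annotation used and the strand setting were not stated in the material used. The authors deposited, per transcript, estimated counts, TPM and effective lengths from Salmon.

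Estimated counts were summed per gene with GENCODE M21 (140137 of 140658 transcripts matched, and 0.0866 to 0.152% of reads lay on the others) and rounded. Reads that fit several transcripts were divided by Salmon, so genes with near-identical copies are uncertain. edgeR 4.0.16 (R 4.3.3; TMM scaling, filterByExpr with a minimum of 10, robust quasi-likelihood test, Benjamini-Hochberg adjustment over 13876 genes, threshold 0.05) gave the fold changes, and CPM are TMM-scaled. Log2 read ratios within libraries were compared by exact permutation of libraries with NumPy 2.4.6. Mouse numbers are not shared between groups, so nothing pairs the samples. Alternatives used DESeq2 1.42.0, limma 3.58.1, other scalings and filters, a skeletal muscle covariate, added nuclear copies, deposited TPM, and samples left out.

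Copies were transcripts with at least 80% of their 50 nt windows found in a mitochondrial gene. The members and lists were chosen with earlier results of these data known. Named are all 13 messages, both rRNAs, the tRNAs that passed the filter and, of each nuclear list, the 3 genes with the smallest p and those in a ratio.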

Additional observations from a re-analysis of the deposited data

Results flagged for a closer look

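In 9 of 88 groups of 6 libraries, counted over levels, ratios and shares, 1 library stood apart by Dixon's criterion at the 95% level, which chance meets in about 1 group in 20. Cold 4 accounted for 6 of them. It had the highest mt-Ti (4.46 CPM, next 2.05) and mt-Tm (2.36 CPM, next 1.44) and the lowest mt-Nd4l (812 CPM, next 1328) of the cold libraries. Its ratio of mt-Co2 to mt-Co1 was 0.804 (next 0.628), that of mt-Nd5 to mt-Nd4 was 0.738 (next 1.02) and that of mt-Cytb to mt-Nd5 was 2.04 (next 1.21).

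Of the ctrl libraries, ctrl 6 stood apart in mt-Tt (15.4 CPM, next 7.68), ctrl 2 in mt-Tp (3.33 CPM, next 2.00) and ctrl 14 in the ratio of mt-Atp6 to mt-Atp8 (91.7, next 33.8). Ctrl 14 is 1 of the 4 libraries with the short effective lengths.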

How the results depend on the processing

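The 8 messages called lower were called again in all 80 combinations of message and planned setting, and in all 96 of message and 1 animal left out. In 16 combinations with settings chosen after seeing the data, 1 call was lost, that of mt-Nd4l without ctrl 14 and cold 12, 15 and 16 (-0.69, adjusted p = 0.0570). The count of rRNAs called higher was 0, but 1 with library totals, limma-voom or mouse number under 8 as a covariate, and 2 with the muscle covariate or without ctrl 2 and cold 15. Leaving out 1 animal gave 0 to 2. For tRNAs it was 0, but 1 (mt-Tt) with library totals, a count minimum of 50, DESeq2, limma-voom, the muscle covariate or the mouse number covariate, and 0 to 1 leaving out 1 animal. Signs turned for mt-Nd2 with library totals (0.0382), mt-Nd3 without those 4 libraries (0.0855), mt-Rnr2 to mt-Rnr1 without ctrl 2 and cold 15 (-0.0428), and, with deposited TPM, mt-Nd4 to mt-Nd4l (-0.0401) and mt-Nd6 to mt-Cytb (-0.0778). Without ctrl 2 and cold 15 the calls of mt-Nd2 to mt-Nd1 (0.19, adjusted p = 0.146) and mt-Cytb to mt-Nd5 (-0.46, adjusted p = 0.119) were lost in the exact permutation test. With mouse number under 8 alone, mt-Nd4l to mt-Nd3 stood at -1.01, mt-Nd3 to mt-Co3 at 0.75, mt-Nd4 to mt-Nd4l at 0.31, mt-Nd5 to mt-Nd4 at 0.18 and mt-Nd6 to mt-Nd5 at 0.02. The rRNA share differed by 1.603 percentage points in TPM, against 0.912 in reads. In ctrl 2, 55.2% of the TPM lay on transcripts with an effective length under 50 nt. In the other libraries this was 2.36 to 8.41%, so shares in TPM are not on a like footing in ctrl 2. With 1 animal left out, values ran from -0.0225 to 0.383 for mt-Tm, and for ratios from -0.0143 to 0.128 (mt-Rnr2 to mt-Rnr1), -0.465 to 0.0419 (mt-Nd4l to mt-Nd3), -0.0372 to 0.185 (mt-Nd4 to mt-Nd4l), -0.0697 to 0.0947 (mt-Nd6 to mt-Cytb) and -0.130 to 0.0325 (mt-Nd1 to Ndufv1). With the nuclear copies added, mt-Nd3 to mt-Co3 was called higher (0.43, exact permutation test, adjusted p = 0.00758). So was mt-Nd5 to mt-Nd4 (0.32, exact permutation test, adjusted p = 0.0318). With deposited TPM, mt-Nd5 to mt-Nd4 was called at 0.31 (exact permutation test, adjusted p = 0.0404). Neither ratio was called in the main setting. The causes of these changes with the settings were not tested. No paired analysis was possible because the groups share no mouse number. Of the tRNAs, 17 had too few reads to test.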
